A study of Mus musculus with 24 samples.

Results

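The genes described here encode the chains of collagen, and they were taken as every row of the table whose symbol reads Col, a type number, the letter a and a chain number. The rule found 44 genes among 21960, and measured levels played no part in it. By type, 9 encode fibril-forming chains (types I, II, III, V and XI), 8 encode chains of basement membranes (types IV, XV and XVIII) and 27 encode all other types. Of the 44, 11 held enough counts for a test of each gene, and the other 33 are described through counts summed over the animals of a group.

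RNA was sequenced from extracellular vesicles of mouse plasma, with 1 library per animal and 24 animals in all. Male C57BL/6J mice had their common bile duct tied off (bile duct ligation, a model in which dammed bile damages and scars the liver) or had sham surgery, and blood was drawn from the heart 8 or 15 days later. The 4 groups are ligated mice at day 8, sham-operated mice at day 8, ligated mice at day 15 and sham-operated mice at day 15, with 6 animals each. All 24 animals were therefore operated on, the labels used here give neither a genetic change nor an age. The vesicles were precipitated with ExoQuick, a polymer reagent, and their cells of origin were not separated, so each value is a mixture over all cells that feed RNA into plasma. The tissue label reads liver and the site label reads extracellular vesicles. Libraries were made from total RNA with a stranded kit, and neither ribosomal RNA removal nor poly(A) selection was done.

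Collagens are proteins in which triple helices of chains form the scaffold between cells. Fibril-forming chains give connective tissue its tensile strength, type IV chains form the sheet under epithelia and vessels, and the multiplexins XV and XVIII sit at the edge of that sheet. In the liver, hepatic stellate cells and portal fibroblasts make most of types I and III, and the build-up of these fibrils is the scar of biliary fibrosis. Types II, IX, X and XI are known from cartilage, and type VI forms beaded filaments around cells in muscle and many other tissues.

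Depth was low, with 101733 to 937963 counts per library, and at day 8 libraries 4 to 6 of either group held more counts than libraries 1 to 3. The 12 marker genes of hepatocytes were far higher after ligation. They summed to between 2822 and 21308 CPM (counts scaled to 1000000 per library) in ligated mice at day 15, against 62.8 to 165 CPM in sham mice at day 15. At day 8 they summed to 411 to 3719 CPM in ligated mice, against 41.1 to 157 CPM in sham mice. Of the list for stellate cells and fibroblasts, 8 of its 21 genes in the table were tested, and edgeR called 0 at either single day, with a median log2 fold change of -0.15 at day 8 and of -0.35 at day 15. DESeq2 also called 0, and 1 gene at each day had an unadjusted p under 0.05. Averaged over both days, edgeR and DESeq2 each called 1 lower, which for edgeR was Fbn1, the gene of the microfibril protein fibrillin-1 (log2 fold change -0.86, SE 0.28, edgeR adjusted p 0.0423). Of all tested genes, edgeR called 3.50% lower on that average. The summed level of the whole list ran from 831 to 1091 CPM in ligated mice at day 15 and from 840 to 2457 CPM in sham mice at day 15. At day 8 it ran from 677 to 1090 CPM in ligated mice, below the 1118 to 1503 CPM of sham mice. Vim, the gene of the filament protein vimentin, which many cell types express, made up 62.0% and 63.5% of that list in ligated mice at day 8 and day 15 and 62.5% and 63.3% in sham mice. Lhx2 was at 0 counts in 3 of the 4 groups.

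Collagen RNA made up a smaller share of the vesicle libraries of ligated mice. Taken as 1 sum, all collagens had 344 CPM in the lowest, 479 in the median and 584 in the highest ligated mouse at day 15, against 783, 992 and 1641 CPM in sham mice at day 15. Every ligated mouse lay below every sham mouse. At day 8 the same sum was 216, 486 and 969 CPM in ligated mice and 749, 837 and 1196 CPM in sham mice, and the groups overlapped through 1 ligated animal, number 4. In mixed plasma RNA, fewer cells of a type and less RNA per cell cannot be told apart. A CPM value is a share of the library total.

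At day 15 the gap was widest in the fibrillar collagens. They summed to 107, 189 and 362 CPM in ligated mice at day 15 (lowest, median and highest), against 471, 598 and 829 CPM in sham mice, with means of 203 ± 93.2 and 623 ± 136 CPM (SD, n = 6 each). The groups did not overlap, and the log2 ratio of the means was -1.62. At day 8 the fibrillar sum was 109, 245 and 637 CPM in ligated mice and 367, 513 and 687 CPM in sham mice, a log2 ratio of -0.87 with overlapping groups. Within the shallower day 8 libraries, numbered 1 to 3, that ratio was -1.19, and within the deeper ones, numbered 4 to 6, it was -0.49. The basement membrane collagens differed less at day 15, with 109, 182 and 223 CPM in ligated mice and 182, 229 and 412 CPM in sham mice, a log2 ratio of -0.56. At day 8 they stood at 77.1, 131 and 161 CPM in ligated mice and 108, 181 and 296 CPM in sham mice, a ratio of -0.68. In both cases the groups overlapped. The other collagens had a log2 ratio of -0.94 at day 8 and of -0.97 at day 15. No test was run on these sums, since they add up genes whose results were already known. Part of these ratios is common to all genes: scaling by library totals in place of TMM factors moved the median of all tested genes by -0.28 at day 8 and -0.20 at day 15 (log2). With TMM-scaled totals the fibrillar ratio was -0.59 at day 8 and -1.39 at day 15, the basement membrane ratio -0.35 and -0.33, and that of the other collagens -0.61 and -0.73.

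**Figure D1:**
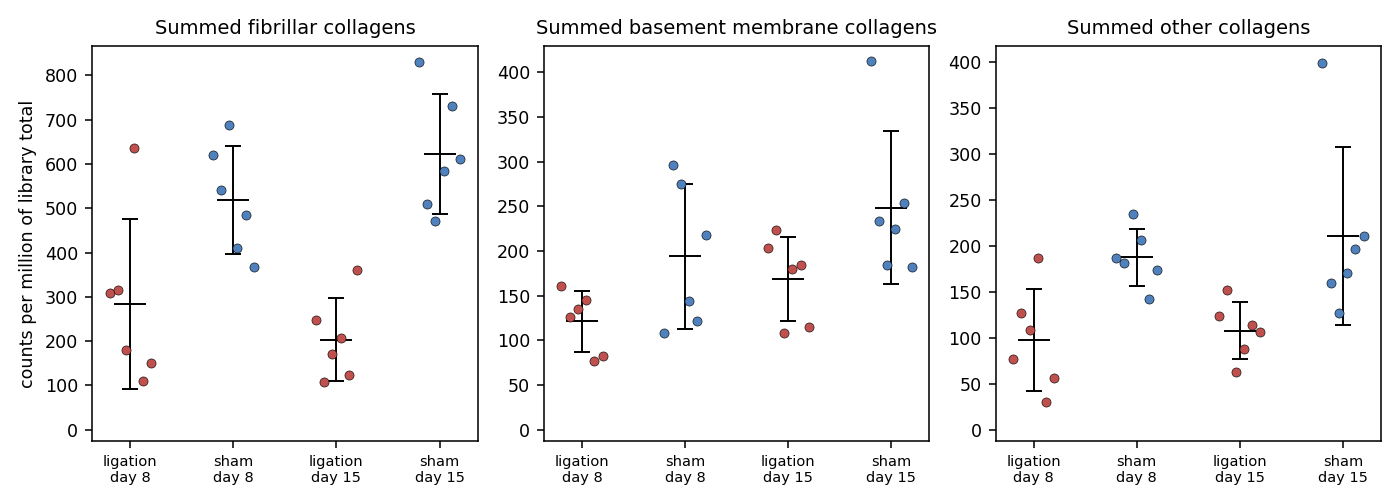
Summed CPM of the fibrillar (left), basement membrane (middle) and other (right) collagens in each of the 24 libraries. Points are animals, long bars the group means and whiskers the SD (n = 6). For the fibrillar collagens at day 15 the ligated mice reach at most 362 CPM and the sham mice start at 471 CPM.

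Each gene was tested with edgeR on counts scaled by TMM factors, which correct library totals for differences in RNA makeup, and was called at a p-value under 0.05 after Benjamini-Hochberg adjustment over all tested genes. By that rule 5 collagens passed at day 15 and 1 at day 8. At day 8, 0 of 11 tested collagens were called higher in ligated mice, where 2.77% of all 4112 tested genes were, and 1 was called lower, where 0.365% were. DESeq2 also called 0 higher and 1 lower, and 0 collagens were higher at an unadjusted p under 0.05. At day 15, 1 collagen was called higher, where 3.48% of all genes were, and 4 were called lower, where 1.07% were. A gene can pass the count filter through the group where it is high. Col2a1 passed only through sham mice, Col15a1 and Col6a2 mainly through sham mice, and Col18a1 mainly through ligated mice. The numbers of calls beside these shares are therefore a description and no independent support. The median log2 fold change of the 11 collagens was -0.49 at day 8, beside 0.02 over all tested genes, and -1.29 at day 15, beside -0.02. Averaged over both days, 1 collagen was called higher (7.10% of all genes) and 6 lower (3.50%). The higher one was Col18a1, whose call ended without ligated mouse 5 at day 15 or ligated mouse 4 at day 8, and the lower ones were Col1a1, Col1a2, Col2a1, Col6a1, Col6a2 and Col15a1. Without the 3 ligated libraries richest in receptor gene counts, described with Col1a2, the averaged call ended for Col1a2 (edgeR adjusted p 0.0603) and Col6a1 (adjusted p 0.107). In that fit Col4a1 (-0.75, edgeR adjusted p 0.0440) and Col10a1 (-5.21, adjusted p 0.00195) were called lower. Col10a1 had failed the filter of the main fit, and the filter was rerun on the remaining libraries. With 0 counts in ligated mice at day 8 and 2 at day 15, Col10a1 could pass it only through sham mice. Its call is therefore no independent support either. In 3 of the 11 (Col1a1, Col6a2 and Col15a1) every ligated animal at day 15 lay below every sham animal in TMM-scaled CPM, which 0.803% of all tested genes did. None of the 11 lay wholly above the sham mice, where 2.38% of all genes did. At day 8 no collagen was fully separate in either direction, while 1.97% of all genes lay wholly above and 0.340% wholly below. A test of the difference between the days called 0 of 11 collagens and 0 of 4112 genes by edgeR, with 234 genes at an unadjusted p under 0.05. DESeq2 called 0 collagens and 1 gene of all, and 3 collagens had an unadjusted p under 0.05 with the more negative effect at day 15.

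**Figure D2:**
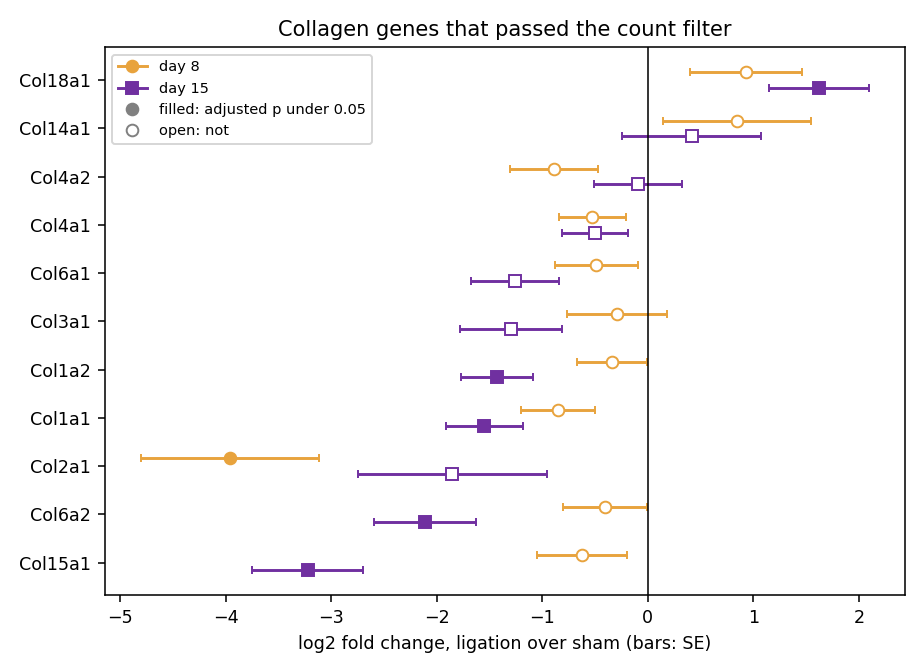
Log2 fold change, ligation over sham, of the 11 collagen genes that passed the count filter, at day 8 (circles) and day 15 (squares), with SE bars. Filled symbols have an adjusted p under 0.05: Col2a1 at day 8, and Col15a1, Col6a2, Col1a1, Col1a2 and Col18a1 at day 15. Only Col18a1 and Col14a1 lie right of 0 at both days.

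Types I and III, the fibrils of scar and skin, were the most abundant collagens per length over all libraries pooled. Col1a1, the gene of the major type I chain, had 16.9, 49.3 and 90.4 CPM in ligated mice at day 15 and 112, 172 and 191 CPM in sham mice. All 6 ligated animals lay below all 6 sham animals. It fell by 1.55 on the log2 scale (SE 0.37, edgeR adjusted p 0.00992). Col1a2, the partner chain in the same helix, fell alongside it. It had 21.5, 43.2 and 90.4 CPM in ligated mice at day 15, against 102, 149 and 189 CPM in sham mice, without overlap in CPM, though the groups overlapped in TMM-scaled CPM. Its log2 fold change was -1.43 (SE 0.34, edgeR adjusted p 0.0114). Neither call held without 3 ligated libraries (mouse 3 at day 8, mice 1 and 2 at day 15) that were high in counts of receptor genes silent in blood and liver. Without them the log2 fold changes were -1.40 for Col1a1 and -1.30 for Col1a2, with edgeR adjusted p-values of 0.0537 and 0.0798, in a fit with fewer animals.

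Col3a1, which forms thinner mixed fibrils with type I, did not pass the test at day 15. It had 39.5, 71.6 and 112 CPM in ligated mice and 62.3, 232 and 404 CPM in sham mice, and 4 ligated animals lay above the lowest sham animal. Its log2 fold change was -1.29 (SE 0.48, edgeR adjusted p 0.129). It passed in a fit of only the 2 groups compared (-1.29, edgeR adjusted p 0.0377) and without the count filter. At day 8 none of these 3 genes passed: Col1a1 had a log2 fold change of -0.85 (SE 0.35, edgeR adjusted p 0.244), Col1a2 of -0.34 (SE 0.33, adjusted p 0.691) and Col3a1 of -0.29 (SE 0.47, adjusted p 0.840). Ligated mouse 4 at day 8 held 267 of the 380 Col3a1 counts of its group, and its 344 CPM compare with 31.8 to 122 CPM in the other 5 ligated mice and 88.7 to 374 CPM in sham mice. Without it the change of Col3a1 at day 8 was -1.17. The same animal was the highest of its group for Col1a1 (129 CPM) and Col1a2 (131 CPM).

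**Figure D3:**
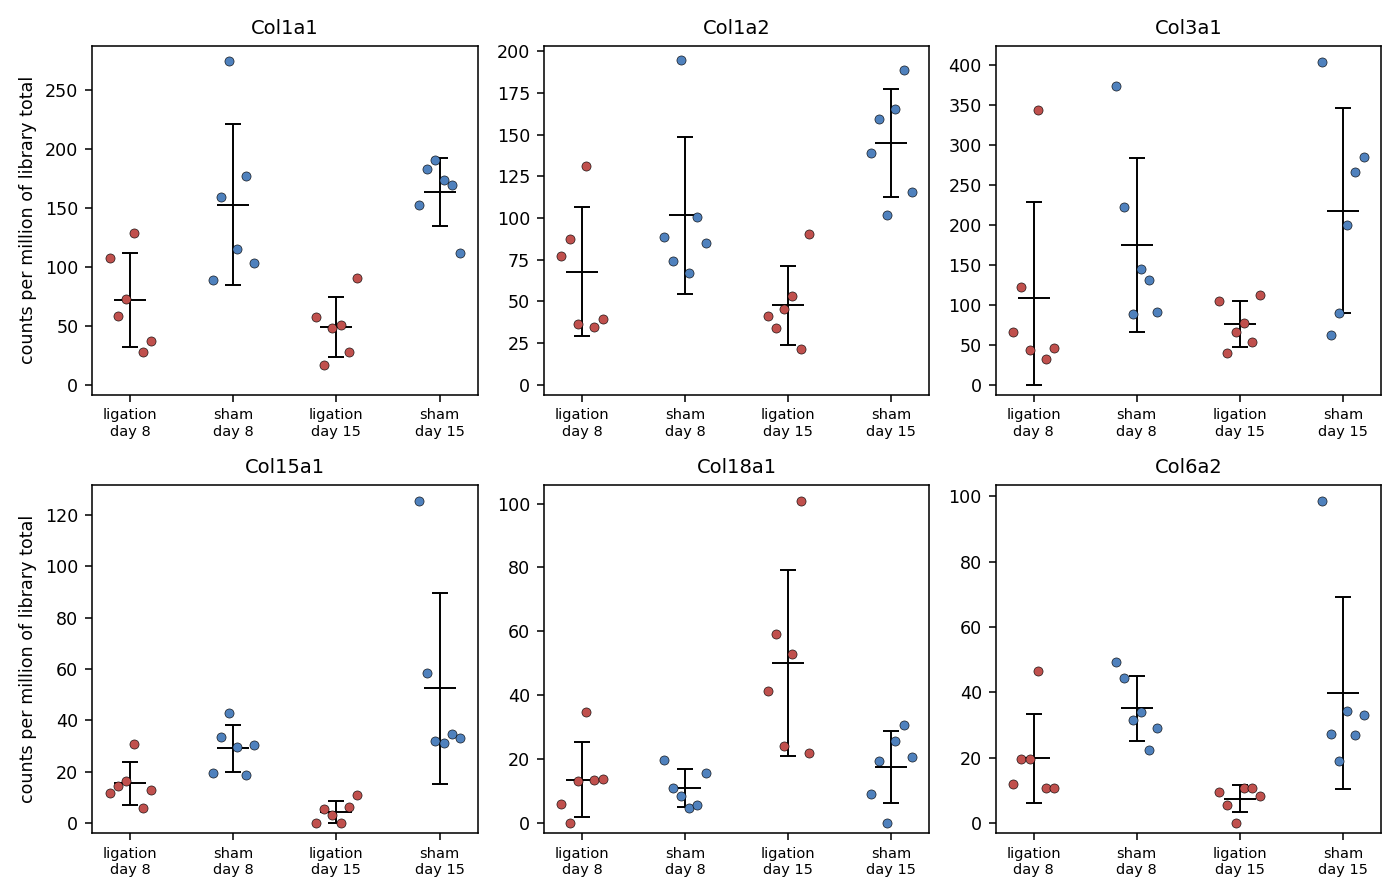
CPM of 6 collagen genes in each library, with group means and SD (n = 6, whiskers stopped at 0). Ligated and sham mice at day 15 are fully separate for Col1a1, Col1a2, Col15a1 and Col6a2, while Col18a1 is higher in ligated mice; ligated mouse 4 at day 8 stands at 344 CPM for Col3a1.

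Partner chains were also compared with each other. Per length of exon, Col1a1 and Col1a2 stood at a ratio of 0.951 in ligated mice at day 15 (95% interval 0.717 to 1.26, counting error only) and of 1.02 in sham mice (0.844 to 1.22). At day 8 the ratio was 0.937 (0.768 to 1.14) in ligated mice and 1.42 (1.21 to 1.66) in sham mice. Col3a1 stood to Col1a1 at 1.66 in ligated mice and 1.44 in sham mice at day 15, with intervals that overlap. At day 8 it stood at 1.98 in ligated mice and 0.973 in sham mice. Single sham libraries at day 8 spanned 0.344 to 4.50 for this last ratio, a range that covers both group values.

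Type V chains, which start fibrils and set their width, were below the count filter. Summed over 6 animals, Col5a1 had 28 counts in ligated mice and 48 in sham mice at day 8, and at day 15 it had 26 in ligated and 48 in sham mice. The ratio of library shares was 0.521 (95% interval 0.315 to 0.847) at day 8 and 0.365 (0.218 to 0.601) at day 15. Col5a2 had 39 counts in ligated and 42 in sham mice at day 8, a ratio of 0.829 (0.522 to 1.31), and at day 15 it had 21 in ligated and 38 in sham mice, a ratio of 0.373 (0.208 to 0.651). These intervals cover counting error and not the spread between animals. In single animals the type V collagens overlapped at day 15, with 11.3 to 44.4 CPM in ligated mice and 34.2 to 112 CPM in sham mice.

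Among basement membrane chains, the common pair Col4a1 and Col4a2 gave no call. At day 15 Col4a1 had 40.8, 60.6 and 88.8 CPM in ligated mice and 70.2, 108 and 130.0 CPM in sham mice, with overlapping groups and an edgeR log2 change of -0.50 (SE 0.31, edgeR adjusted p 0.425). Col4a2 had 18.1, 34.8 and 67.8 CPM in ligated mice and 25.5, 42.8 and 94.2 CPM in sham mice, which is a change of -0.09 (SE 0.42, adjusted p 0.939). Day 8 gave -0.53 for Col4a1 (SE 0.32, edgeR adjusted p 0.466) and for Col4a2 -0.89 (SE 0.42, adjusted p 0.326). None of these passed the test. Per length, Col4a1 stood to Col4a2 at 1.53 in ligated and 1.99 in sham mice at day 15, and at 1.79 in ligated and 1.49 in sham mice at day 8, with intervals that overlap at each day. The 4 rarer type IV chains, Col4a3 to Col4a6, had 21 to 56 counts each over all libraries.

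Col4a1 and Col4a2 lie head to head on chromosome 8 and are read in opposite directions. Their first exons share 22 bases at chr8:11312805-11312826 (GRCm38, + strand). These are shown because reads there fit both genes if counting ignored strand, which the sources used here do not state. The stretch, from RefSeq, follows in lower case.
Col4a1 and Col4a2 overlap: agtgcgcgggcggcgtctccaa
At 22 of 6651 exon bases of Col4a1 and 6450 of Col4a2, the overlap is a small part of either gene.

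The multiplexins XV and XVIII, sister genes with similar layouts, moved in opposite directions at day 15. Col15a1, whose product anchors basement membranes to the matrix beneath in muscle and around vessels, had 0, 4.33 and 10.96 CPM in ligated mice (lowest, median and highest) and 31.3, 33.8 and 126 CPM in sham mice. In counts, ligated mice 1 to 6 had 0, 2, 1, 0, 3 and 4, and sham mice 1 to 6 had 28, 15, 5, 11, 9 and 8. Every ligated animal was below every sham animal. Col15a1 fell by 3.22 on the log2 scale (SE 0.53, edgeR adjusted p 0.000159), the largest decrease among the 11 collagens tested at day 15, and the call held in all 12 refits without 1 library. The gene lies at chr4:47208161-47313167, and 14 of its exon bases lie opposite the antisense gene Gm12426.

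Col18a1 encodes the precursor of endostatin, and hepatocytes are a known source of it. It had 21.9, 47.1 and 101 CPM in ligated mice at day 15 and 0, 20.1 and 30.8 CPM in sham mice. In counts, ligated mice 1 to 6 had 13, 21, 8, 20, 47 and 8, and sham mice 1 to 6 had 2, 5, 0, 9, 8 and 5. In CPM, 4 ligated animals lay above the highest sham animal and the other two overlapped with sham mice. Col18a1 rose by 1.62 on the log2 scale (SE 0.47, edgeR adjusted p 0.0447), a call close to the threshold. Leaving out 1 library at a time ended it in 9 of 12 refits, with changes of 1.26 to 1.81, and scaling by library totals gave 1.43 (edgeR adjusted p 0.0631). The gene lies at chr10:77052178-77166548.

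At day 8 neither multiplexin passed the test. Col15a1 had 6.05, 13.7 and 30.9 CPM in ligated mice and 18.7, 29.9 and 42.9 CPM in sham mice, a log2 fold change of -0.62 (SE 0.43, edgeR adjusted p 0.541), with 5 of 6 ligated animals below all sham animals. Col18a1 had 0, 13.4 and 34.8 CPM in ligated mice and 4.65, 9.85 and 19.7 CPM in sham mice, a log2 fold change of 0.93 (SE 0.53, edgeR adjusted p 0.440). The 27 counts of ligated mouse 4 stand beside 54 in its whole group. Per length, Col18a1 stood to Col15a1 at 10.1 (95% interval 5.28 to 21.5, counting error only) in ligated mice at day 15 and 0.328 (0.206 to 0.509) in sham mice at day 15. At day 8 the ratio was 0.929 (0.620 to 1.39) in ligated mice and 0.290 (0.180 to 0.454) in sham mice. For Col15a1 the effect of ligation was more negative at day 15 by 2.60 on the log2 scale (SE 0.70), with an unadjusted p of 0.00092 and an edgeR adjusted p of 0.583.

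Albumin RNA was measured beside Col18a1, since both are made in hepatocytes. Alb had 669, 1952 and 6693 CPM in ligated mice at day 15 and 0, 10.3 and 61.6 CPM in sham mice. Ligated mouse 5, with 47 counts of Col18a1, also had the highest Alb at 6693 CPM, and ligated mouse 6, with 8 counts, had the lowest at 669 CPM. At day 8 Alb had 81.7, 189 and 1243 CPM in ligated mice and 0, 2.36 and 34.0 CPM in sham mice. There the highest Alb was in ligated mouse 3, which had 4 counts of Col18a1. Whether hepatocyte RNA has a part in the Col18a1 result was not tested.

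The stretches before the starts of these sister genes are shown because the genes moved apart. RefSeq (GRCm38.p6) gives Col15a1 a start preceded by chr4:47207762-47208011 (+ strand). It gives Col18a1 2 starts, preceded by chr10:77166531-77166780 for the upstream one and chr10:77113706-77113955 for the downstream one (both - strand). Each sequence runs 5′ to 3′ toward its gene, and capitals mark promoter motifs found on either strand. The motifs searched were the TATA box with the letters TATAAA, the CCAAT box, and the GC box with the letters GGGCGG.
Col15a1: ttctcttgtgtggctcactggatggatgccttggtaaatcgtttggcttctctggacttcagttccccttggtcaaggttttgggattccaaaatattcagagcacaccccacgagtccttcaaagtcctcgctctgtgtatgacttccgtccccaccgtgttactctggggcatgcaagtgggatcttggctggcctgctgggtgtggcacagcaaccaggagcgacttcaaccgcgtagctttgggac
Col18a1 upstream start: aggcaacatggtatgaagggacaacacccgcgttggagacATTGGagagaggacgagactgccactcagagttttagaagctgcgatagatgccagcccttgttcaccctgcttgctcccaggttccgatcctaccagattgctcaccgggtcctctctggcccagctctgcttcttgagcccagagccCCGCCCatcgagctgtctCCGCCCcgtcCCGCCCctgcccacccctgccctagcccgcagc
Col18a1 downstream start: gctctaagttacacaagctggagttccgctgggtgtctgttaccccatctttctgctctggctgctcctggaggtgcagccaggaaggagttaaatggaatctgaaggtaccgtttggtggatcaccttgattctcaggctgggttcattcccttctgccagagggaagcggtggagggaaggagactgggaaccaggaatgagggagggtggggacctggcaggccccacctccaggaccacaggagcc
The upstream Col18a1 stretch held 1 CCAAT box and 3 GC boxes, all read on the reverse strand and none overlapping another, and no TATA box. The other two stretches held none of the 3. Over the same 250-base window of 32851 promoters, 33.8% held a CCAAT box, 32.7% a GC box and 12.4% a TATA box. The counts are per gene, so they do not tell the Col18a1 starts apart.

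Type VI chains assemble as a trio of Col6a1, Col6a2 and a longer chain, usually Col6a3. At day 15 Col6a2 had 0, 8.87 and 10.7 CPM in ligated mice and 19.1, 30.1 and 98.6 CPM in sham mice, without overlap. It fell by 2.11 on the log2 scale (SE 0.48, edgeR adjusted p 0.00712). Col6a1 had 7.95, 14.6 and 27.4 CPM in ligated mice and 19.1, 41.5 and 77.0 CPM in sham mice, with overlapping groups and a log2 fold change of -1.26 (SE 0.41, edgeR adjusted p 0.0800). Averaged over both days Col6a1 passed the test at -0.87 (SE 0.29, edgeR adjusted p 0.0486), a call that ended in 15 of 24 refits without 1 library. Col6a3, below the filter, had 30 counts in ligated mice and 47 in sham mice at day 15, a ratio of 0.430 (95% interval 0.263 to 0.695). The type VI collagens as a sum had 30.2 to 54.8 CPM in ligated mice at day 15 and 70.0 to 273 CPM in sham mice, without overlap.

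At day 8 the type VI genes were closer. Col6a2 had a log2 fold change of -0.41 (SE 0.40, edgeR adjusted p 0.694) and Col6a1 of -0.49 (SE 0.40, adjusted p 0.608). Ligated mouse 4 again stood highest, with 46.4 CPM of Col6a2 beside at most 19.7 CPM in the other ligated mice. Col6a3 did not share that animal's excess: it had 20 counts in ligated mice and 57 in sham mice, a ratio of 0.313 (95% interval 0.178 to 0.530), and 5 of 6 ligated animals lay below all sham animals. Col6a6, an alternative to that longer chain, had 1 count in ligated mice and 22 in sham mice at day 15, a ratio of 0.0307 (0.000743 to 0.190). The 22 counts came from 5 of the 6 sham animals. At day 8 the same gene had 16 counts in ligated mice, 11 of them in mouse 4, and 18 in sham mice.

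Of the cartilage collagens, Col2a1 was called lower at day 8, and types IX and X had 0 counts in ligated mice at that day. Col2a1, the fibril chain of hyaline cartilage, had 0, 1.51 and 11.9 CPM in ligated mice and 3.70, 37.4 and 65.8 CPM in sham mice. In counts, ligated mice 1 to 6 had 2, 1, 0, 0, 2 and 0, and sham mice 1 to 6 had 4, 1, 23, 20, 19 and 36. In CPM 4 ligated animals lay below the lowest sham animal and 2 overlapped with it. Col2a1 fell by 3.96 on the log2 scale (SE 0.84, edgeR adjusted p 0.00861), and the call held in all 12 refits without 1 library. Within libraries numbered 1 to 3 the change was -2.51 (edgeR adjusted p 0.493), and within those numbered 4 to 6 it was -4.92 (adjusted p 0.0598). At day 15 Col2a1 had 8 counts in ligated mice, 7 of them in mouse 6, and 23 in sham mice, a log2 fold change of -1.85 (SE 0.89, edgeR adjusted p 0.270). Without ligated mouse 6 the change at day 15 was -4.09 and passed the test.

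Col10a1, which hypertrophic cartilage makes where growing bone forms, had 0 counts in all 6 ligated mice at day 8 and 118 counts in sham mice, at least 44.04-fold lower against a floor of 3 counts over the group. The sham counts were 0, 0, 29, 16, 26 and 47 in mice 1 to 6, so sham mice 1 and 2 had none, like the ligated mice. At day 15 Col10a1 had 2 counts in ligated mice and 29 in sham mice, of which 17 were in sham mouse 2, a ratio of 0.0465 (95% interval 0.00538 to 0.184). The gene was below the count filter and was not tested there. Its exons share 18 bases with Nt5dc1 on the other strand, and the sources used here do not say whether counting used strand. Col9a3 likewise shares 234 exon bases with Tcfl5 on the other strand, and Col3a1 shares 141 with the miRNA gene Gm47302 on its own strand.

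Type IX, which coats type II fibrils, gave the same picture at day 8 on few counts. Col9a1, Col9a2 and Col9a3 each had 0 counts in ligated mice and 9 in sham mice, at least 3.36-fold lower for each gene. Summed, the type IX collagens had 0 counts in ligated mice and 1, 2, 6, 2, 5 and 11 in sham mice 1 to 6, at least 10.1-fold lower. All 6 sham animals held at least 1 count. At day 15 the sum was 7 counts in ligated mice and 1 in sham mice, a ratio of 4.72 (95% interval 0.607 to 213), which gives no direction at this depth. Col11a1 had 2 counts in ligated mice and 14 in sham mice at day 8, a ratio of 0.128 (0.0141 to 0.555), and 4 in ligated and 2 in sham mice at day 15. Col11a2 had 13 counts in ligated and 25 in sham mice at day 8, a ratio of 0.464 (0.218 to 0.943), and 5 in ligated and 13 in sham mice at day 15, a ratio of 0.259 (0.0724 to 0.775).

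**Figure D4:**
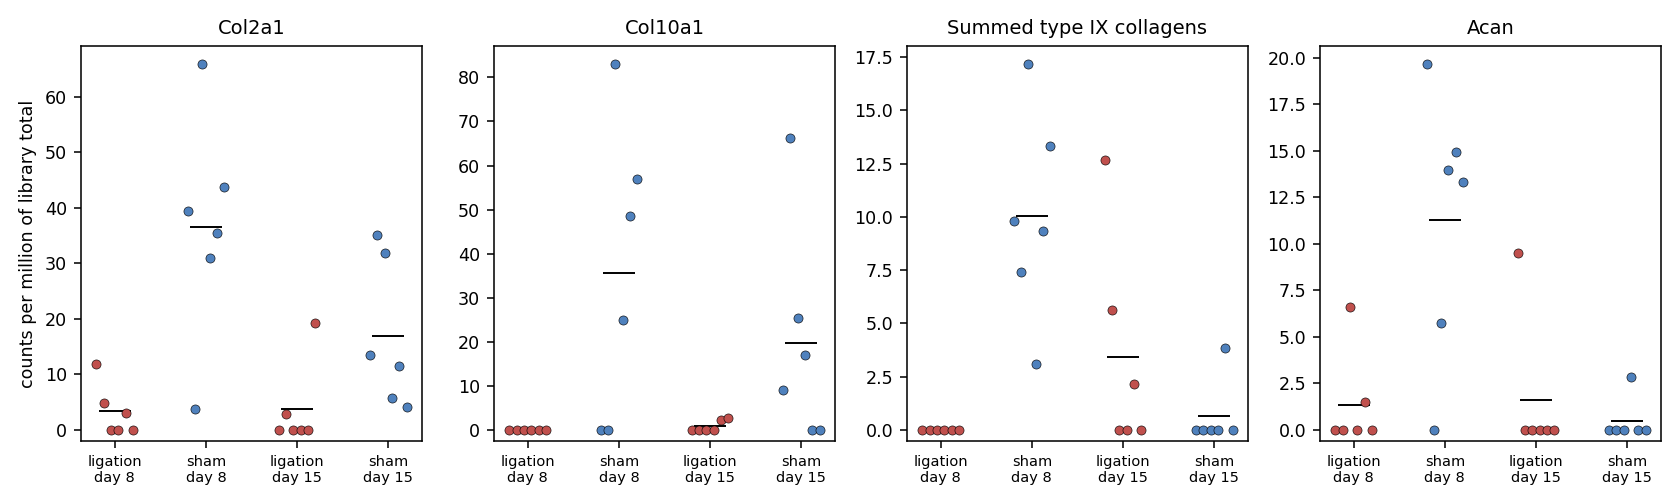
CPM of Col2a1, Col10a1, the summed type IX collagens and Acan, the gene of the cartilage proteoglycan aggrecan, in each library, with group means as bars. In ligated mice at day 8 Col10a1 and type IX are at 0 in 6 of 6 animals, while Col2a1 reaches 65.8 CPM and Col10a1 83.0 CPM in sham mice at day 8.

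Other cartilage and bone genes were set beside these collagens. Acan had 3 counts in ligated mice and 32 in sham mice at day 8, a ratio of 0.0837 (95% interval 0.0164 to 0.268), and 3 in ligated and 1 in sham mice at day 15. Mmp13, a collagen-cutting protease of hypertrophic cartilage and bone, had 12 counts in ligated and 30 in sham mice at day 8. Spp1, the gene of osteopontin in bone and in bile duct cells, had 30 counts in ligated mice and 95 in sham mice at day 8. The cartilage list as a whole overlapped between the groups: its 16 genes in the table, which hold no collagen, summed to 37.3 to 92.1 CPM in ligated mice and 59.2 to 80.3 CPM in sham mice at day 8. Of that list 4 genes (Epyc, Matn1, Matn3 and Ucma) were at 0 counts in ligated mice and 0 genes in sham mice at day 8. Sox6, which red cell precursors express too, made up 51.6% of the sum in ligated mice and 21.1% in sham mice at day 8. The 14 bone genes summed to 86 counts in ligated mice and 179 in sham mice at day 8, a ratio of 0.429 (0.328 to 0.558). At day 15 they had 119 counts in ligated and 70 in sham mice, a ratio of 1.15 (0.846 to 1.56). The part of such tissue RNA in the collagen results was not tested.

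Some muscle genes were lower in ligated mice at day 8 too. Of 21 heart and skeletal muscle genes, 6 were tested and 2 were called lower, where 0.365% of all tested genes were. Actc1, cardiac actin, fell by 2.54 on the log2 scale (SE 0.60, edgeR adjusted p 0.0182). Pln, whose product phospholamban restrains the calcium pump of heart muscle, had a change of -2.16 (SE 0.61, edgeR adjusted p 0.0495). Averaged over both days edgeR called 3 of the 6 lower, where 3.50% of all genes were. The list heart and skeletal muscle summed to 54.4 to 470.4 CPM in ligated mice and 198 to 782 CPM in sham mice at day 8. At day 15 it summed to 130 to 886 CPM in ligated mice and 140.01 to 1305 CPM in sham mice. There edgeR and DESeq2 each called 0 of the 6, and 2 had an unadjusted p under 0.05. Nppa, a defining atrial gene, was at 0 counts in both groups at day 8. Genes of skin keratinocytes were near 0, with 15 counts in ligated and 5 in sham mice at day 8 and 23 in ligated and 8 in sham mice at day 15 over 9 genes. The part of muscle RNA in the type VI and type XV results was not tested.

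Of the remaining collagens, Col14a1 and Col8a1 held the most counts. Col14a1, a fibril-associated chain, was 1 of only 2 tested collagens with a positive fold change at both days and passed the test at neither, with 0.85 at day 8 (SE 0.70, edgeR adjusted p 0.619) and 0.41 at day 15 (SE 0.66, adjusted p 0.800). At day 8 ligated mouse 4 held 37 of the 54 counts of its group, and without it the change was -0.10. Col8a1, a short-chain collagen of vessel walls, had 9 counts in ligated mice and 28 in sham mice at day 8, a ratio of 0.287 (95% interval 0.119 to 0.626). At day 15 it had 10 counts in ligated and 13 in sham mice, a ratio of 0.519 (0.204 to 1.28). Of the 33 untested members, 18 at day 8 and 20 at day 15 had counts in both groups and more than 3 in at least 1 of them. The interval of the ratio lay wholly below 1 for 5 of the 18 at day 8 and wholly above 1 for 0. Over all 8358 genes below the count filter that had such a ratio at day 8, it lay below 1 for 11.8% and above 1 for 4.40%. At day 15 it lay below 1 for 8 of the 20 members and above 1 for 0, where 9.09% of 8384 genes lay below and 7.57% above. These shares were not matched for count, and the interval narrows with more counts. In 10 members at day 8 and 11 at day 15 both groups were at or under 3 counts, and these were not compared. Of the members over 3 counts, 4 at day 8 (type IX and Col10a1) were at 0 in ligated mice only. At 0 in sham mice only were Col6a5 at day 8, with 13 counts in ligated mice of which 10 were in mouse 4, and at day 15 Col22a1 and Col28a1, with 4 counts each in ligated mice. As a sum the untested members had 54.3 to 136 CPM in ligated mice at day 15, below the 140.01 to 354 CPM of sham mice.

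How low a level still carries meaning was gauged with 1494 odor, pheromone and taste receptor genes, which blood and liver are not known to use. These silent chemosensory genes had 163, 870 and 2611 CPM in ligated mice at day 15 and 4.13, 10.6 and 50.1 CPM in sham mice at day 15, without overlap. At day 8 they had 10.7, 56.6 and 1256 CPM in ligated mice and 3.10, 9.14 and 39.3 CPM in sham mice. Ligated mouse 3 at day 8 and ligated mice 1 and 2 at day 15 were the 3 libraries above 1000 CPM. In ligated mice at day 15 the counts lay on 908 of the 1459 receptor genes with a known exon length, against 25 in sham mice at day 15. Whether these counts came from RNA was not tested. Per length, the receptors reached 0.220 CPM per kilobase of exon in ligated mice at day 15, against 0.00376 in sham mice at day 15. Of the 44 collagens, 10 lay at or below that level in ligated mice at day 15, and 8 lay at least 10 times above it. In sham mice at day 15, all 34 collagens with any count lay at least 10 times above the level of their own group, and 10 had 0 counts. A single count was enough there, as for Col6a5, which with 1 count stood 19.2 times above it. At day 8, 23 collagens in ligated mice and 35 in sham mice lay at least 10 times above the level of their own group. Those 35 were again all collagens with any count, so this mark cannot compare ligated with sham mice.

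The rarest collagens lay near this level. The 10 members with under 10 counts in all, among them Col7a1, Col17a1 and Col28a1, had 26 counts in ligated mice at day 15 and 3 in sham mice, and 10 in ligated and 4 in sham mice at day 8. In ligated mice at day 15 that is 0.190 CPM per kilobase, 0.864 times the level of the receptors. By contrast Col3a1 stood 60.6 times, Col1a1 36.4 times, Col18a1 34.3 times and Col15a1 3.40 times above the receptors in the same group. With the receptors' rate per kilobase subtracted, the log2 ratio of the other collagens at day 15 was -1.57, beside -0.97 without it.

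**Figure D5:**
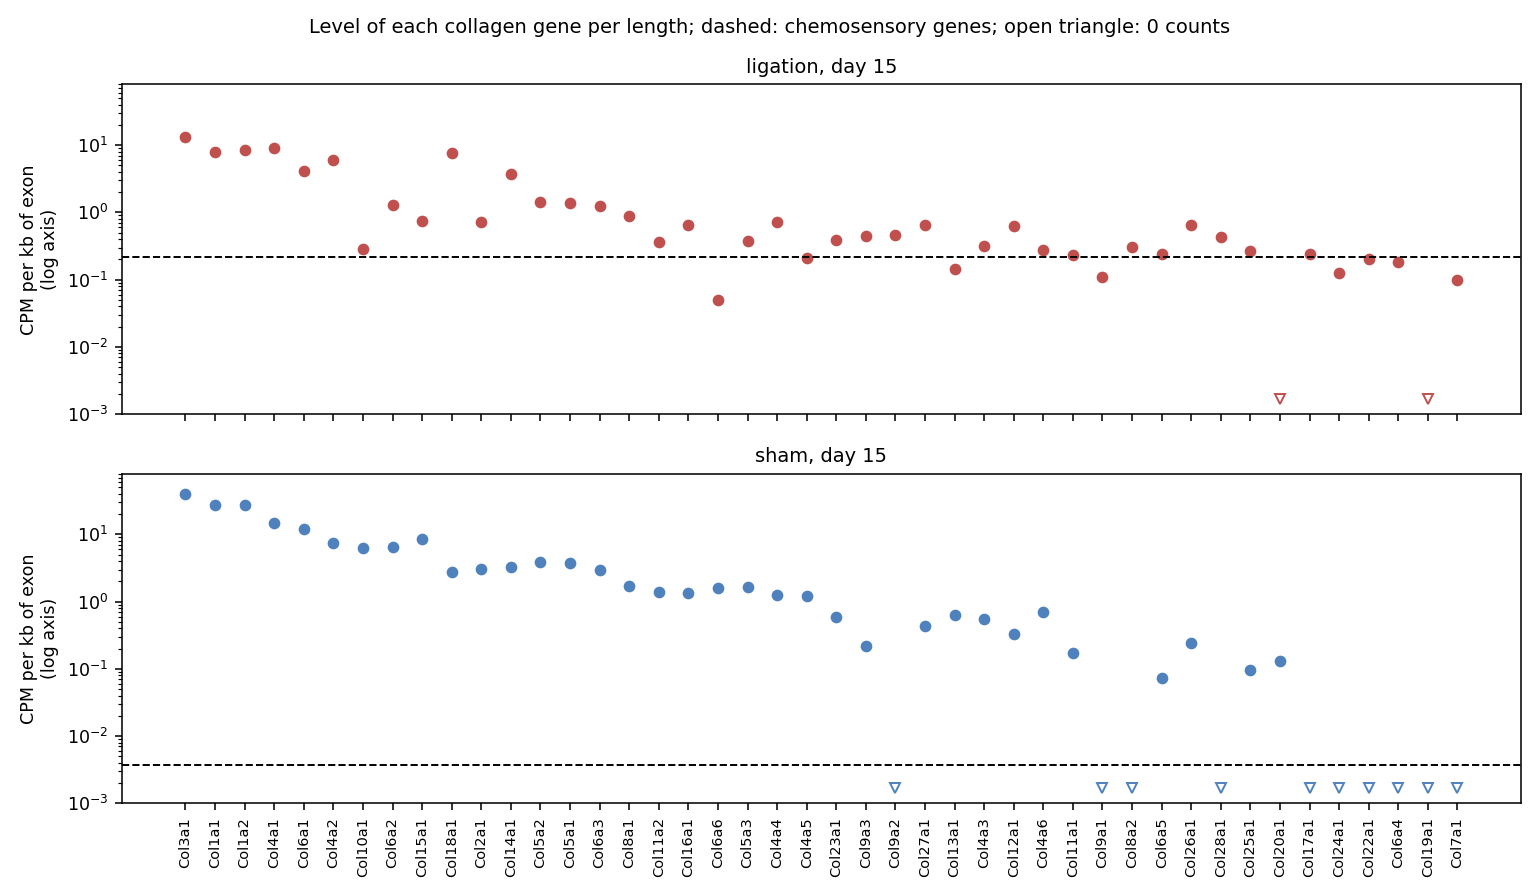
CPM per kilobase of exon (log axis) of the 44 collagen genes, ordered by their level over all libraries, in ligated mice (top) and sham mice (bottom) at day 15. Dashed lines mark the silent chemosensory genes of the same group (0.220 and 0.00376), and open triangles, drawn at a fixed height, mark genes with 0 counts (2 in ligated mice and 10 in sham mice).

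Over all libraries the order of levels in CPM per kilobase of exon was led by Col3a1 at 23.5, Col1a1 at 16.99, Col1a2 at 15.1 and Col4a1 at 10.2. Col6a1 at 6.84, Col4a2 at 6.17 and Col10a1 at 5.02 came next, and the tenth was Col18a1 at 3.41. The order differed between groups. In ligated mice at day 15 Col3a1 stood at 13.3 and Col4a1 at 9.12, ahead of Col1a2 at 8.43, Col1a1 at 8.01 and Col18a1 at 7.54. In sham mice at day 15 Col18a1 stood at 2.77 and Col4a1 at 14.9, against 27.5 for Col1a1 and 27.1 for Col1a2. Levels per length assume the full exon set of each gene and do not allow for fragments.

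Between the days, ligated mice showed 1 change among the collagens. Col18a1 was higher in the later group, with a log2 change of 1.65 (SE 0.44, edgeR adjusted p 0.0326), where 2.26% of all genes were called higher and 2.09% lower. The call ended in 6 of 12 refits without 1 library. Col15a1 had a change of -1.76 (SE 0.58, edgeR adjusted p 0.0820) in ligated mice. In sham mice edgeR called 0 of 11 collagens and 0 of all genes, with 439 genes at an unadjusted p under 0.05. DESeq2 called 0 collagens and 1 gene higher and 4 lower, and 1 collagen (Col15a1, 0.83, SE 0.40, edgeR adjusted p 0.445) had an unadjusted p under 0.05. Day and the run of libraries cannot be told apart in these comparisons, since no label gives a batch.

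Other genes of the collagen pathway were grouped by role. Of 22 genes for folding, modification and secretion, 6 were tested, and 2 rose at day 15 while 0 fell. Of all tested genes, 3.48% were called higher and 1.07% lower at that day. The median log2 fold change of the 6 was -0.05 at day 8 and 0.10 at day 15, and both genes that rose also serve cargo other than collagen. P4hb, a subunit of the enzyme that hydroxylates collagen proline and a general folding catalyst, had 175, 195 and 301 CPM in ligated mice at day 15 and 62.3, 70.9 and 103 CPM in sham mice. The groups did not overlap, and it rose by 1.74 on the log2 scale (SE 0.25, edgeR adjusted p 3.51e-05). Mia2, which helps load large cargo for export and which hepatocytes express, rose by 1.91 (SE 0.49, edgeR adjusted p 0.0197). Serpinh1, the collagen-specific chaperone, had a log2 fold change of -0.76 (SE 0.45, edgeR adjusted p 0.399). At day 8 edgeR and DESeq2 each called 0 of the 6, and 1 had an unadjusted p under 0.05.

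Of 19 genes for processing and cross-linking, 7 were tested, and at day 15 0 rose and 1 fell, where 1.07% of all tested genes fell. Sparc, a matrix protein that binds collagen, had 34.4, 92.7 and 129 CPM in ligated mice at day 15 and 144, 204 and 235 CPM in sham mice, without overlap. Its log2 fold change was -1.02 (SE 0.28, edgeR adjusted p 0.0287). The other 6, among them Bgn, Dcn, Fmod and Loxl1, passed at neither day, where DESeq2 made the same number of calls. At an unadjusted p under 0.05, 5 of the 7 were lower at day 15 and 1 was higher at day 8, and their median log2 fold change was -1.06 at day 15 and -0.03 at day 8. Of 10 collagen receptors 4 were tested, and edgeR and DESeq2 called 0 at day 8 or day 15, with 0 and 1 at an unadjusted p under 0.05. Of 14 breakdown genes 2 (Timp2 and Timp3, inhibitors of matrix proteases) were tested, and both tools called 0, with 0 at an unadjusted p under 0.05. In ligated mice the collagen receptor chains Gp6, Itga2 and Itgb1 were lower at day 15 than at day 8. Their log2 changes were -2.25 (SE 0.53), -2.34 (SE 0.60) and -1.65 (SE 0.42), with edgeR adjusted p-values of 0.0202, 0.0251 and 0.0242. In that comparison 3 of 8 platelet markers were called lower as well, where 2.09% of all tested genes were. The part of platelet RNA in it was not tested. In sham mice the later group had log2 changes of -1.75 for Gp6 (SE 0.56), -2.24 for Itga2 (SE 0.69) and -1.26 for Itgb1 (SE 0.43), with edgeR adjusted p-values of 0.288, 0.237 and 0.331. There edgeR and DESeq2 called 0 of the 4 receptors, and 3 had an unadjusted p under 0.05. The median of the 4 receptors was -1.95 in ligated and -1.51 in sham mice, and all 8 platelet markers were lower at an unadjusted p under 0.05 in both. For these 4 receptors the change between days was called different between ligated and sham mice in 0 by edgeR and 0 by DESeq2, with 0 at an unadjusted p under 0.05.

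Markers of other sources gave these counts. Of hepatocyte genes 11 were tested, of which 9 rose at day 8 and 11 at day 15. Of all tested genes, 2.77% and 3.48% rose at these days. Of 10 tested endothelial genes, 2 tested bile duct genes and 8 tested platelet genes, edgeR and DESeq2 called 0 at either day. At an unadjusted edgeR p under 0.05, 2 endothelial genes were lower at day 15, and of the bile duct genes 1 was higher and 1 lower at day 8. There were 0 otherwise. The 1 tested cartilage gene (Sox6) and the 1 tested bone gene (Spp1) were called by edgeR at neither day, and DESeq2 called Sox6 higher at day 8. Averaged over both days, edgeR and DESeq2 each called Sox6 higher (edgeR log2 fold change 1.20) and 1 endothelial gene lower. On that average edgeR called 7.10% of all tested genes higher and 3.50% lower. All 6 tested red blood cell genes rose at day 8, where 2.77% of all tested genes did. At day 15 both tools called 0 of the 6, with 0 at an unadjusted p under 0.05.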

How the data were processed

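The authors deposited 1 table of expected counts for 21960 mouse genes in 24 plasma vesicle libraries, made with STAR and RSEM per the submitters' processing notes (version numbers not given in the sources used here). Those notes name hg38, a human build, although the identifiers are mouse Ensembl genes. Values were whole numbers, so no rounding was needed, and 0 sample columns were left unused. Library totals of 101733 to 937963 limit what low genes can show.

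Coordinates and exon lengths (all exons of protein-coding transcripts) came from GENCODE M21 (GRCm38) by gene identifier, found for 21860 of 21960 rows and 44 of 44 collagens. Sequences are from RefSeq (GRCm38.p6), where 35 of 44 collagens had a promoter. Genes passing edgeR's filter (minimum count 10, minimum total 15) numbered 4112. All 4 groups were fitted in 1 model with TMM scaling, and the quasi-likelihood test of edgeR 4.0.16 (limma 3.58.1, R 4.3.3) was used with Benjamini-Hochberg adjustment over all 4112 genes and a threshold of 0.05. The fit was tested on simulated data. DESeq2 1.42.0 was an alternative. Python 3.11.15, pandas 2.3.3 and SciPy 1.17.1 gave CPM (per library total) and ratios of pooled counts with exact 95% Clopper-Pearson intervals. Without molecular identifiers, such intervals, and the floor of 3 counts per group sum, reflect counting error and nothing else.

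The collagens, the lists of related genes and markers, and the rule for naming were chosen with earlier results of these data known. Named were called collagens, the 2 smallest p-values per comparison, a set of well-known chains, the 3 other collagens with most counts, and up to 3 called genes per list. The lists are folding and secretion, processing, receptors, breakdown, cartilage, bone, stellate cells and fibroblasts, heart and skeletal muscle, skin, endothelium, hepatocytes, bile duct, platelets and red blood cells. Each library is labelled as 1 animal. No 2 libraries of a group agreed within sampling noise (smallest chi-square per degree of freedom 1.66). Deviations of same-numbered ligated and sham libraries correlated at 0.165 to 0.327 at day 8, all over 0.1. At day 15 they correlated at -0.03 to 0.11. Depth at day 8 also followed library number in either group, and libraries with different numbers were not compared. These correlations therefore cannot show whether same-numbered libraries were pairs. The main fit treated all libraries as unpaired, and pairing by number entered only through the replicate block, an alternative. Alternatives were other scalings, no filter, the replicate block, leaving out libraries, the groups compared alone and the day 8 libraries by depth. Leaving out libraries high in chemosensory counts, and subtracting their rate, were added after seeing the data.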

Additional observations from a re-analysis of the deposited data

Results flagged for a closer look

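In 10 of 60 sets of 6 animals, 1 animal stood far from the rest of its group by Dixon's gap test. The test flags about 5% of sets by chance where values are normal and sets independent. Neither holds here, since CPM of low counts is skewed and the class sums contain genes that are also tested singly. The basement membrane sum holds Col4a2 and Col15a1, and the sum of other collagens holds Col6a2. Sham mouse 1 at day 15 was the high one in 5 of them, with 98.6 CPM of Col6a2 (next 34.2), 126 CPM of Col15a1 (next 58.4), 94.2 CPM of Col4a2 (next 49.6), 412 CPM of basement membrane collagens (next 254) and 399 CPM of other collagens (next 211). Ligated mouse 4 at day 8 had 344 CPM of Col3a1 (next 122) and 46.4 CPM of Col6a2 (next 19.7). Ligated mouse 1 at day 8 had 83.4 CPM of Col4a2 (next 26.3). Ligated mouse 6 at day 15 had 19.2 CPM of Col2a1 (next 2.82). Sham mouse 3 at day 8 had 195 CPM of Col1a2 (next 101).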

How the results depend on the processing

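Without the count filter, edgeR called 1 collagen higher and 2 lower at day 8, 8 lower at day 15, 2 higher and 11 lower on average, 1 lower for the difference between days and 2 lower in ligated mice between days. Without the 3 libraries above 1000 CPM of chemosensory genes it called 2 lower at day 8, 0 higher and 2 lower at day 15, and 0 higher both on average and in ligated mice between days. Of the 2 at day 8, Col10a1 had failed the count filter of the main fit. Scaling by library totals gave 0 higher at day 15. Within day 8 libraries 1 to 3 and within 4 to 6, 0 were lower. There Col18a1 stood at -0.17 in libraries 1 to 3 and Col3a1 at 0.33 in libraries 4 to 6, against the direction in all libraries. With the replicate block 0 were called higher in ligated mice between days (Col18a1 1.69, adjusted p 0.108), Col3a1 passed at day 15 (-1.21, adjusted p 0.0405), and no day 8 call changed. Subtracting the chemosensory rate moved the other collagens at day 15 to -1.57. The cause of these differences was not tested. Leaving out 1 library gave 0 to 1 higher and 4 to 5 lower at day 15, 0 to 1 higher and 5 to 7 lower on average, and 0 to 1 higher in ligated mice between days. It moved Col14a1 at day 8 between -0.10 and 1.58, and Col4a2 at day 15 between -0.31 and 0.13. Over all settings other than leaving out 1 library, 97 of the counts and sums stayed near their value and 17 moved, and of single genes 238 kept their direction and their side of the threshold, called or not, 11 lost a call, 7 gained one and 2 turned. Low depth left 33 collagens without a test.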
